A study of Mus musculus with 11 samples.

Results

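Integrin and laminin subunit genes were followed across 6 sorted mouse populations from bone and marrow. The members were all genes whose symbols in the array's annotation named an integrin alpha chain, an integrin beta chain or a laminin alpha, beta or gamma chain. This gave 34 of the 18193 genes measured, with 24 integrin chains (16 alpha and 8 beta) and 10 laminin chains, each read from its probe set (a group of short probes for 1 transcript) with the highest mean over all arrays. Itgad and Itga11 fit the same naming and had no probe set with a single symbol, so they were not analysed here.

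Integrins are cell surface receptors built from an alpha and a beta chain, and they tie the cytoskeleton to the extracellular matrix or to other cells. The beta2 integrins belong to leukocytes, the alphaV integrins bind matrix proteins with an RGD motif, and many alpha chains share the beta1 chain. Laminins are trimers of an alpha, a beta and a gamma chain and form the scaffold of basement membranes, among them those around marrow sinusoids and muscle fibers. CD51, a surface marker often used to sort marrow stroma, is the alphaV chain itself, encoded by Itgav.

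RNA was measured on 11 Affymetrix mouse arrays, and the deposited values are on a log2 scale. There were 2 arrays each of Mx1+Ocn- periosteal skeletal stem cells (P-SSCs), Mx1+Nes+ bone marrow skeletal stem cells (BM-SSCs), CD51+ bone marrow cells (CD51+ BMSCs), Osx+ osteolineage precursors and CD45+ hematopoietic cells, and 1 array of Nes+ bone marrow cells with or without Mx1 (Nes+ BMSCs). All populations other than the CD45+ cells were labelled CD45-, CD31- and Ter119-, and the P-SSCs, BM-SSCs and Nes+ BMSCs also CD105+ and CD140a+. For the CD51+ BMSCs the study's text adds CD105 and CD140a, which their labels lack. P-SSCs and BM-SSCs came from mice with Mx1-Cre and the Rosa-Tomato reporter, which also carried Osteocalcin-GFP for the P-SSCs and Nestin-GFP for the BM-SSCs. These mice were irradiated with 9.5 Gy at 4 weeks of age, received wild-type marrow, and were given 25 mg/kg pIpC to switch on Cre. The Mx1 promoter responds to interferon and is also active in hematopoietic cells, so a host's remaining blood cells can carry the label. Osx+ cells expressed GFP under the Osterix promoter. Strain, age and treatment of the mice behind the CD51+, Osx+ and CD45+ cells were not given for the arrays in the sources used here. The study's methods call the 2 arrays of a population biological repeats, from male and female mice, and do not say how many animals went into each. The source field of the Nes+ array names periosteum while its title names marrow, which was used here.

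Several arrays stood apart or went against their labels. Across all probe sets the 2 arrays of a population correlated at 0.985 to 0.995 in the CD51+ BMSCs, Osx+ and CD45+ cells, at 0.771 in the BM-SSCs and at 0.456 in the P-SSCs. Pdgfra, the gene of the sorting marker CD140a, was at 11.28 on P-SSC array 1 and 4.41 on P-SSC array 2, and at 10.95 and 6.90 on the BM-SSC arrays. The median of 9 ribosomal protein genes was 7.25 on P-SSC array 2 and between 11.76 and 12.99 on the others. Ptprc, which encodes CD45, was at 10.23 and 10.17 in the CD51+ BMSCs, a population labelled CD45-, beside 12.06 and 12.05 in CD45+ cells and 2.42 to 7.42 elsewhere. Pecam1, which encodes CD31, was at 6.34 and 4.80 in the P-SSCs and 5.09 and 5.97 in the BM-SSCs, both labelled CD31-. It was at 6.64 and 6.75 in CD45+ cells and 3.23 to 3.98 elsewhere. Sp7, the gene of Osterix, was highest in Osx+ cells (8.93 and 8.58). The spread of the members followed the same order as the array correlations, with a root mean square SD of 1.77 in the P-SSCs, 1.17 in the BM-SSCs and 0.165 to 0.273 in the other populations with 2 arrays. Results are therefore given with both SSC populations complete and, where it matters, without their array 2.

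**Figure D1:**
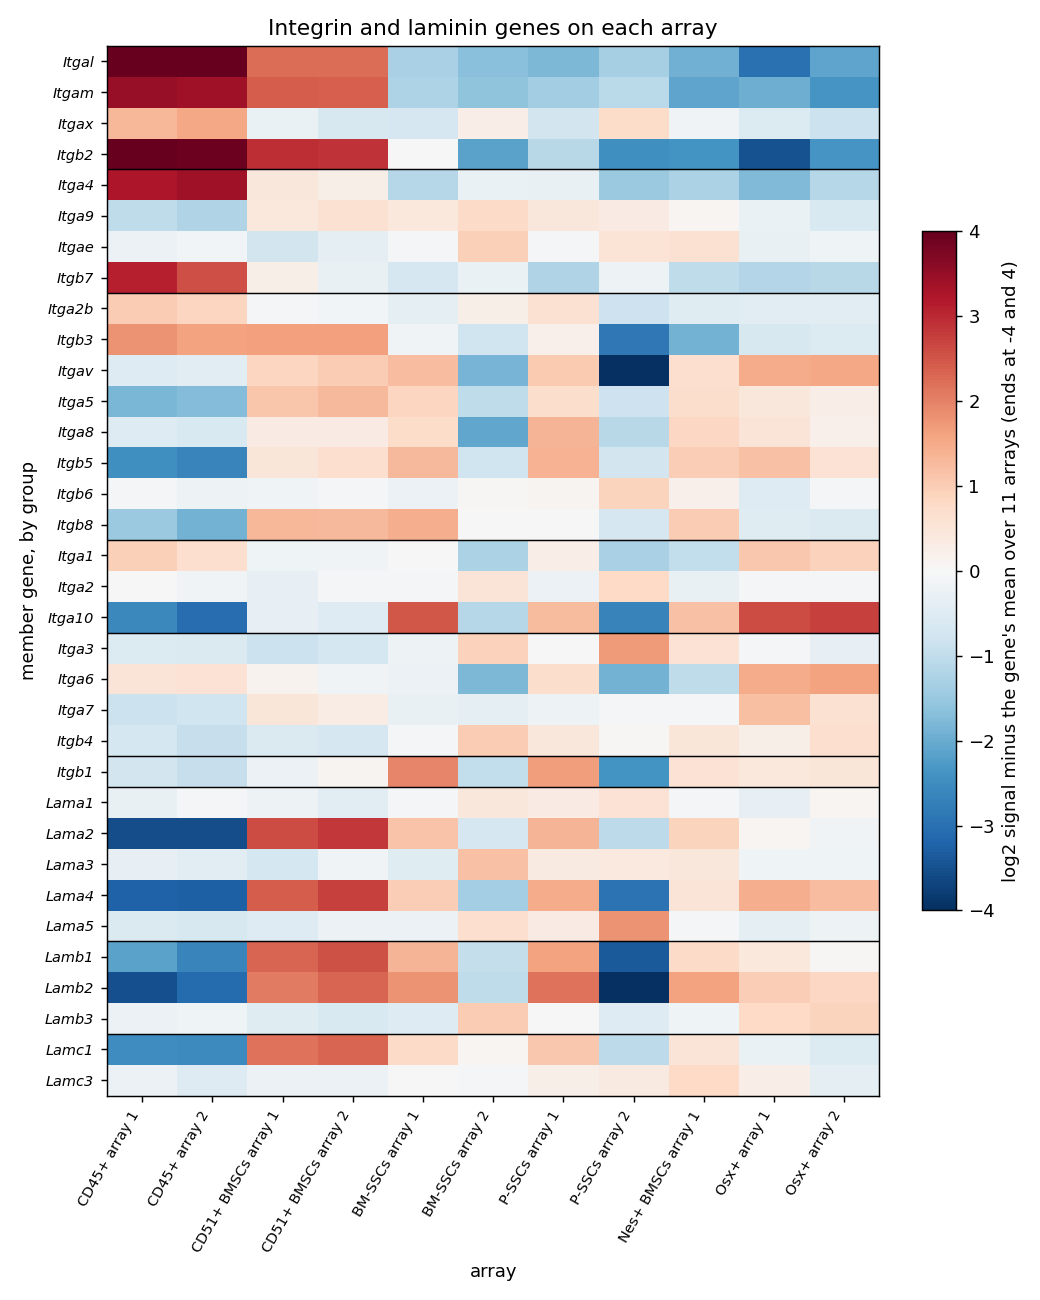
Log2 value of each of the 34 integrin and laminin genes (rows, grouped by role) on each of the 11 arrays (columns, grouped by population), minus the gene's mean over all arrays, with the color scale ending at -4 and 4. Itgb2, Itgal and Itgam are high on the CD45+ and CD51+ arrays, and P-SSC array 2 departs from P-SSC array 1 in many rows.

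Of the 34 members, 14 passed in at least 1 of 11 pairwise comparisons (limma, adjusted p under 0.05) and 20 passed in none. An F test over the 6 populations called 7 members (Itga4, Itgal, Itgam, Itgb2, Itgb7, Lama2 and Lamc1), beside 8.6% of all genes tested. Its count was 2 without either CD45+ array, 4 without either Osx+ array, 24 without P-SSC array 1 and 15 without P-SSC array 2. The share of all genes called was not computed for these smaller sets of arrays. With all arrays, the calls lay mostly in comparisons with CD45+ cells. P-SSCs had 3 members higher and 5 lower than CD45+ cells, where 3.09% and 9.39% of all genes were called. BM-SSCs had 4 higher and 5 lower, against 2.94% and 8.02% of all genes. CD51+ BMSCs had 6 higher and 3 lower, against 4.25% and 3.66%. Osx+ cells had 3 higher and 6 lower, against 4.91% and 7.05%. The median difference of the members from CD45+ cells was 0.65 in the P-SSCs, 0.48 in the BM-SSCs, 0.08 in the CD51+ BMSCs and 0.52 in Osx+ cells, where the medians over all genes were 0.19, 0.08, -0.07 and 0.02. These 4 comparisons share the CD45+ arrays.

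Fewer members were called among the populations other than CD45+ cells. Against Osx+ cells, CD51+ BMSCs had 3 members higher and 0 lower, where 2.21% and 0.984% of all genes were called. P-SSCs had 0 of 34 higher or lower than Osx+ cells by limma (8 at an unadjusted p under 0.05), where 0.055% of all genes were higher and 1.02% lower. BM-SSCs had 0 higher or lower than Osx+ cells by limma (7 unadjusted), against 0.044% and 0.781%. Compared with CD51+ BMSCs, P-SSCs had 0 higher and 2 lower, against 0.0055% and 0.835%, and BM-SSCs had 0 higher and 2 lower, against 0.0275% and 0.803%. Between P-SSCs and BM-SSCs, and between BM-SSCs and Nes+ BMSCs, 0 members passed by limma (0 unadjusted in each), and 0% of all genes did. Without P-SSC array 1, members did pass between P-SSCs and Osx+ cells and between P-SSCs and BM-SSCs. That fit rests on P-SSC array 2 alone, where Pdgfra was at 4.41. The share of all genes called in it was not computed.

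**Figure D2:**
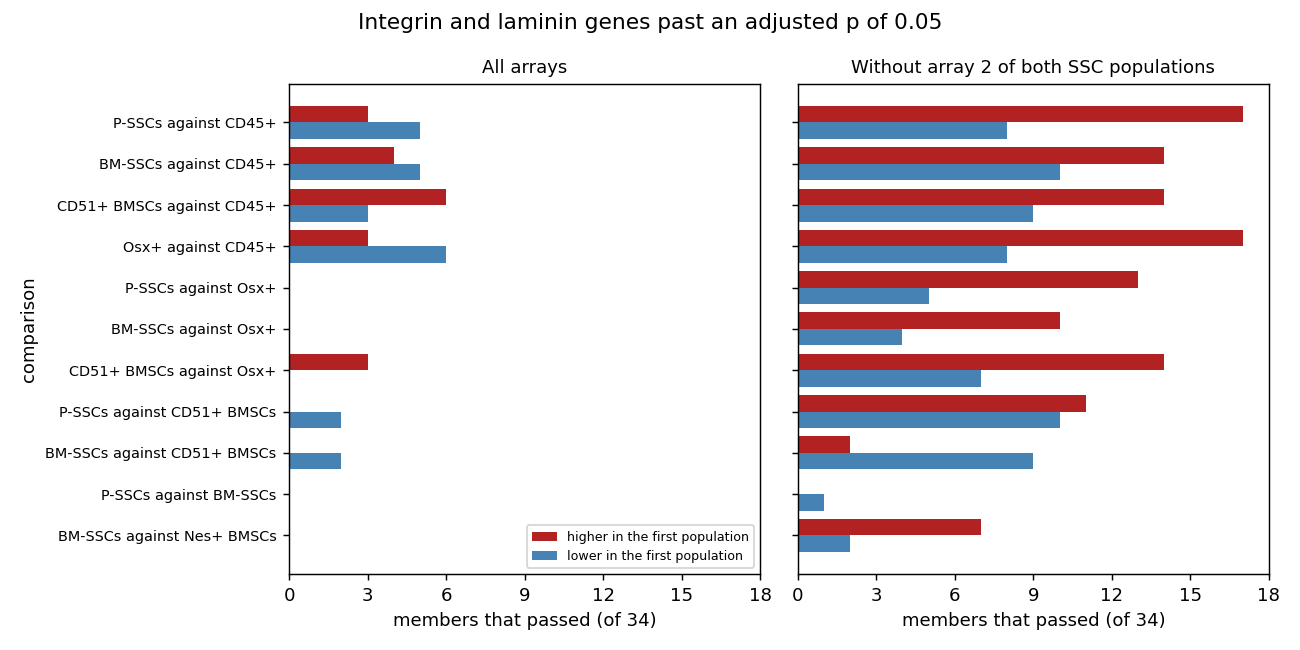
Number of the 34 members that passed (limma, adjusted p under 0.05) as higher or lower in each of 11 comparisons, with all arrays and without array 2 of P-SSCs and BM-SSCs. With all arrays no comparison exceeds 9 members in both directions together, and without these arrays the comparison of P-SSCs with CD45+ cells reaches 25.

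The number of calls depended on the arrays in the fit. Without array 2 of both SSC populations, 29 members passed in at least 1 comparison and 31 by the F test, which then called 75.9% of all genes. The 5 that passed in no comparison even then were Itga2, Itgae, Itgb6, Lama1 and Lamc3. In that setting 17 members were higher and 8 lower in the P-SSCs than in CD45+ cells, beside 24.4% and 30.9% of all genes. The counts were 14 and 10 in the BM-SSCs (18% and 26.2% of all genes), 14 and 9 in the CD51+ BMSCs (19.1% and 24.2%) and 17 and 8 in Osx+ cells (22% and 26.9%). Against Osx+ cells they became 13 and 5 in the P-SSCs (13.1% and 17.7%), 10 and 4 in the BM-SSCs (8.95% and 9.71%) and 14 and 7 in the CD51+ BMSCs (17.2% and 12.9%). Against CD51+ BMSCs they became 11 and 10 for P-SSCs (12.3% and 20.5%) and 2 and 9 for BM-SSCs (5.42% and 11.8%). BM-SSCs had 7 higher and 2 lower than Nes+ BMSCs (19.6% and 10.9%), and P-SSCs had 0 higher and 1 lower than BM-SSCs (0.478% and 1.98%). Each SSC population then rests on a lone array that is assumed to vary like the other populations. All 42 calls made with all arrays were also made in that setting.

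The beta2 leukocyte integrins were lower than in CD45+ cells in Osx+ cells and both SSC populations, with 3 of 4 measured members called in each SSC population, 4 in Osx+ cells and 1 in the CD51+ BMSCs. Itgb2 encodes the shared beta2 chain, and Itgal, Itgam and Itgax encode the alpha chains of LFA-1, Mac-1 and the receptor also known as CD11c. Itgb2 measured 11.34 and 11.01 in CD45+ cells, 10.04 and 9.97 in the CD51+ BMSCs, 7.07 and 4.93 in the BM-SSCs, 5.98 and 4.63 in the P-SSCs, 4.68 in Nes+ BMSCs and 3.59 and 4.71 in Osx+ cells. Itgal measured 10.98 and 10.96 in CD45+ cells, 8.88 on both CD51+ arrays, 5.36 and 4.97 in the BM-SSCs, 4.84 and 5.31 in the P-SSCs, 4.73 in Nes+ BMSCs and 3.66 and 4.53 in Osx+ cells. Itgam measured 8.64 and 8.52 in CD45+ cells, 7.57 and 7.52 in the CD51+ BMSCs, 3.90 and 3.53 in the BM-SSCs, 3.76 and 4.05 in the P-SSCs, 3.04 in Nes+ BMSCs and 3.19 and 2.79 in Osx+ cells. For all 3 genes the CD45+ arrays were highest, the CD51+ arrays came next, and no other array overlapped with them. Itgax measured 6.20 and 6.41 in CD45+ cells and at most 5.59 on all other arrays, and the CD51+ arrays (4.61 and 4.23) lay among the latter.

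Itgal differed from CD45+ cells by -5.89 ± 0.388 (SE) in the P-SSCs (adjusted p = 0.000667), -5.81 in the BM-SSCs (adjusted p = 0.00081), -2.09 in the CD51+ BMSCs (adjusted p = 0.0225) and -6.88 in Osx+ cells (adjusted p = 0.000166). Itgam differed by -4.67 ± 0.322 in the P-SSCs (adjusted p = 0.000763), -4.86 in the BM-SSCs (adjusted p = 0.00081) and -5.59 in Osx+ cells (adjusted p = 0.000166). Itgb2 differed by -5.87 ± 0.764 in the P-SSCs (adjusted p = 0.00493), -5.18 in the BM-SSCs (adjusted p = 0.00815) and -7.02 in Osx+ cells (adjusted p = 0.00144). In CD51+ BMSCs the difference of Itgb2 from CD45+ cells was -1.17 and did not pass (adjusted p = 0.667). Itgax passed only in Osx+ cells (difference -2.15, adjusted p = 0.05 after rounding), and this call was lost after quantile normalization of the values and with the array number as a replicate block. With only the arrays of the 2 populations in the fit, the calls of Itgal, Itgam and Itgb2 in the P-SSCs and of Itgb2 in the BM-SSCs were lost.

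Itgb2, Itgal and Itgam were higher in the CD51+ BMSCs than in Osx+ cells. Against Osx+ cells the difference was 5.85 ± 0.764 for Itgb2 (adjusted p = 0.00926), 4.78 ± 0.388 for Itgal (adjusted p = 0.00237) and 4.56 ± 0.322 for Itgam (adjusted p = 0.00189). These were the 3 members called in that comparison, and 0 were called without CD51+ array 2, 2 without CD51+ array 1, 2 without either Osx+ array and 6 without either P-SSC array. P-SSCs were lower than CD51+ BMSCs in Itgal (difference -3.80, adjusted p = 0.0127) and Itgam (difference -3.64, adjusted p = 0.0109). BM-SSCs were lower in Itgal (difference -3.71, adjusted p = 0.0147) and Itgam (difference -3.83, adjusted p = 0.00898). Itgb2 differed by -4.70 and -4.01 in these comparisons and did not pass (adjusted p = 0.0517 and 0.0887). The calls against CD51+ BMSCs were lost without either CD45+ array or either CD51+ array, where 0 members passed in each comparison, and numbered 18 for P-SSCs without P-SSC array 1. For BM-SSCs they numbered 6 without BM-SSC array 1, 1 without BM-SSC array 2 and 5 without either P-SSC array.

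The median of general leukocyte genes was, like Itgb2, Itgal and Itgam, highest in CD45+ cells and next in the CD51+ BMSCs. Itgax did not share this order, nor did the markers Vav1 and Spi1. Vav1 read 4.38 and 3.84 on the CD51+ arrays and 5.31 on P-SSC array 2, and Spi1 read 6.64 and 6.50 beside 6.75. The median of 10 leukocyte markers was at least 12 on both CD45+ arrays, 10.36 and 10.46 on the CD51+ arrays, 7.80 and 6.49 in the BM-SSCs, 6.84 and 5.52 in the P-SSCs, 6.01 in Nes+ BMSCs and 3.66 and 5.47 in Osx+ cells. Of the 10 markers, 6 were higher in the CD51+ BMSCs than in Osx+ cells, beside 2.21% of all genes. In the P-SSCs and BM-SSCs 4 and 1 were lower than in the CD51+ BMSCs, beside 0.835% and 0.803% of all genes. The part of these markers' cells in the integrin values was not tested, and in sorted bulk RNA fewer leukocytes and less RNA per leukocyte cannot be told apart.

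**Figure D3:**
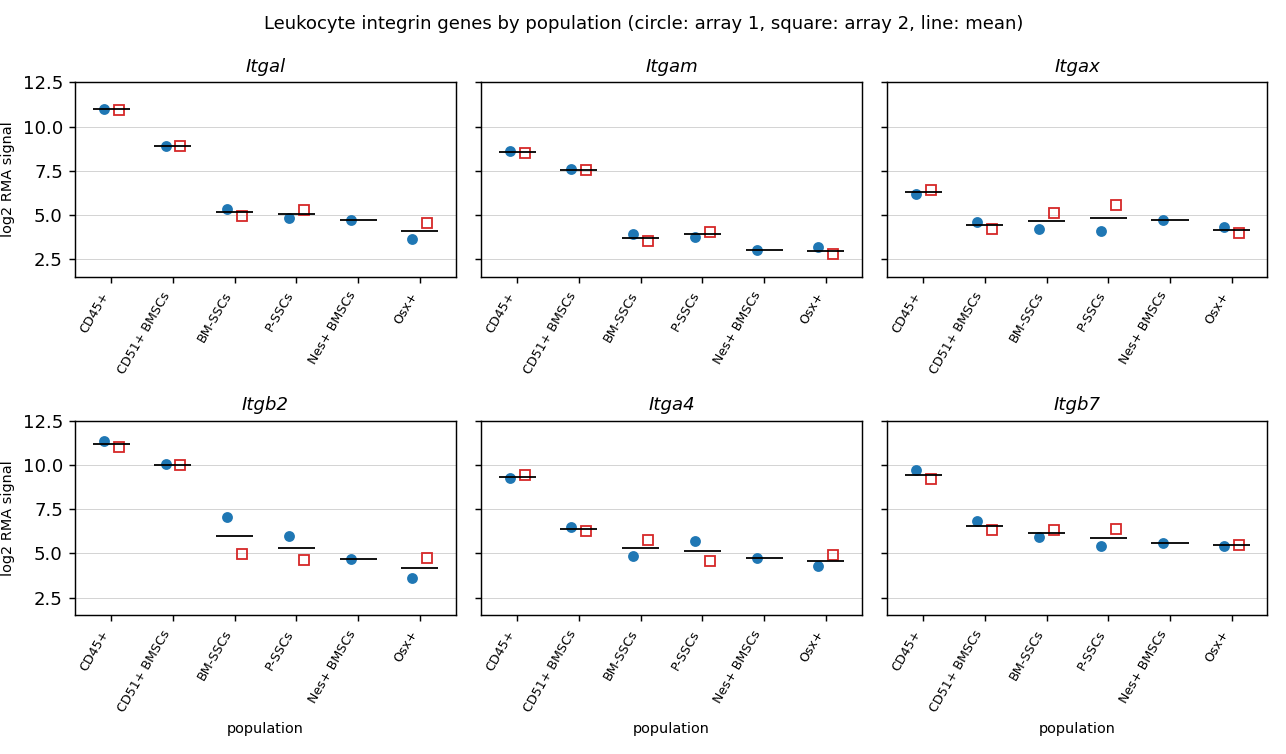
Deposited log2 values of leukocyte integrin genes by population (horizontal axis), with circles for array 1, squares for array 2 and a line at the mean. For Itgb2, Itgal and Itgam the CD45+ and CD51+ arrays lie above all others.

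The promoters of 4 called members with a window in the RefSeq table are shown, namely Itgam, Itga4 and Itgb7, which were lower than in CD45+ cells in several populations, and Lama2, which was higher. Each window runs from 250 bases before to 50 after the annotated start, on build GRCm38.p6, and a window was found for 22 of the 34 members. Capitals mark GAGGAA, a core bound by ETS family factors such as the myeloid regulator PU.1, and GGGCGG, the core of the Sp1 site, each searched on both strands, so that TTCCTC and CCGCCC are the same motifs read from the opposite strand.
Itgam, chr7:128062390-128062689, plus strand: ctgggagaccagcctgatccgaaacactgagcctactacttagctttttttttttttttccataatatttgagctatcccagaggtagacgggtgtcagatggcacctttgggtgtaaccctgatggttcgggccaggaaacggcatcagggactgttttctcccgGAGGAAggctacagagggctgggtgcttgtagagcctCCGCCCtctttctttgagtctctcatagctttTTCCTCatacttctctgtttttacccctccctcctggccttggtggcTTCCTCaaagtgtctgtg
Itga4, chr2:79255176-79255475, plus strand: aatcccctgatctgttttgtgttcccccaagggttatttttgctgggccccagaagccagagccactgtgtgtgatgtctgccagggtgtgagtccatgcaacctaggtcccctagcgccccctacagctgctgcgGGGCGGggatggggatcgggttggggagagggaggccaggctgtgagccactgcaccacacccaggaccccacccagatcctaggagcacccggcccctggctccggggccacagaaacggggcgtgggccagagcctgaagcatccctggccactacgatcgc
Itgb7, chr15:102231886-102232185, minus strand: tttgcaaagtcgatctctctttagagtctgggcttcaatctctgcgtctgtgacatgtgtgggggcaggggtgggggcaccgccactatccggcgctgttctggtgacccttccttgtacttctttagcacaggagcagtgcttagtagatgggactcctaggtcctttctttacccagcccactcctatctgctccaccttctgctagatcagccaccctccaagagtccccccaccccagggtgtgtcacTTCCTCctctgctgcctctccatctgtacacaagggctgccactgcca
Lama2, chr10:27616893-27617192, minus strand: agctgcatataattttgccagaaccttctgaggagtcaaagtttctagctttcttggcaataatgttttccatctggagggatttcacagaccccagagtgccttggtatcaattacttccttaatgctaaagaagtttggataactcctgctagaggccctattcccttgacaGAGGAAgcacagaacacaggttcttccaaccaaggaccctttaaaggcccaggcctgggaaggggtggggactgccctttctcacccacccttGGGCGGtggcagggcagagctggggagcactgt
The Itgam window held 3 copies of GAGGAA and 1 of GGGCGG, the Itgb7 window 1 GAGGAA, the Itga4 window 1 GGGCGG, and the Lama2 window 1 of each. GAGGAA occurred in 28.3% of all 32851 promoter windows and in 13 of the 25 windows of these 22 members, since a gene can have several starts, and GGGCGG in 35.7% and in 12 of 25. A match describes these letters only. Itgam and Itgax are neighbors on chromosome 7, and the Itgax window held neither motif.

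The alpha4 and beta7 chains, which pair in the gut-homing receptor of lymphocytes, were also highest in CD45+ cells. Itga4 measured 9.25 and 9.40 in CD45+ cells, 6.46 and 6.24 in the CD51+ BMSCs, 4.87 and 5.74 in the BM-SSCs, 5.72 and 4.54 in the P-SSCs, 4.75 in Nes+ BMSCs and 4.26 and 4.88 in Osx+ cells. Itgb7 measured 9.71 and 9.19 in CD45+ cells, 6.83 and 6.30 in the CD51+ BMSCs, 5.92 and 6.33 in the BM-SSCs, 5.38 and 6.38 in the P-SSCs, 5.59 in Nes+ BMSCs and 5.43 and 5.49 in Osx+ cells. The CD45+ arrays overlapped with no other array in either gene. Itga4 differed from CD45+ cells by -4.19 ± 0.499 in the P-SSCs (adjusted p = 0.0035), -4.02 in the BM-SSCs (adjusted p = 0.00411), -2.97 in the CD51+ BMSCs (adjusted p = 0.0166) and -4.75 in Osx+ cells (adjusted p = 0.00124). Itgb7 differed by -3.56 ± 0.436 in the P-SSCs (adjusted p = 0.0039), -3.32 in the BM-SSCs (adjusted p = 0.00532), -2.88 in the CD51+ BMSCs (adjusted p = 0.0116) and -3.99 in Osx+ cells (adjusted p = 0.00147). Quantile normalization ended the call of Itga4 in the CD51+ BMSCs and those of Itgb7 in both SSC populations and CD51+ BMSCs. Itgal, Itga4, Itgb7 and Lama2 were the members that passed in all 4 comparisons with CD45+ cells.

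The alpha9 chain, a receptor for tenascin C and osteopontin that also pairs with beta1, ran the other way. Itga9 measured 4.24 and 4.03 in CD45+ cells, 5.66 and 5.85 in the CD51+ BMSCs, 5.65 and 6.01 in the BM-SSCs, 5.70 and 5.57 in the P-SSCs, 5.31 in Nes+ BMSCs and 4.96 and 4.64 in Osx+ cells. It was higher than in CD45+ cells by 1.51 ± 0.315 in the P-SSCs (adjusted p = 0.0272), 1.70 in the BM-SSCs (adjusted p = 0.0187) and 1.63 in the CD51+ BMSCs (adjusted p = 0.0263), and the difference in Osx+ cells was 0.67 (adjusted p = 0.32). With the gene's second probe set these 3 differences were no longer called. Another, dimmer Itga9 probe set was called higher than in CD45+ cells only in the CD51+ BMSCs (difference 2.56, adjusted p = 0.031). Itgae, the alphaE chain that binds E-cadherin, stayed between 3.44 and 5.15 on all arrays and passed in no comparison.

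Itgav, the gene of the sorting marker CD51, was not highest in the cells sorted for it. It measured 10.10 and 10.27 in the CD51+ BMSCs, 10.73 and 10.79 in Osx+ cells, 9.94 in Nes+ BMSCs, 10.50 and 7.39 in the BM-SSCs, 10.31 and 4.23 in the P-SSCs and 8.75 and 8.79 in CD45+ cells. Since the protein was used to choose the CD51+ cells, its level there is given as a description. Another, dimmer Itgav probe set passed with all arrays between Osx+ and CD45+ cells (difference 1.74, adjusted p = 0.0435). At the probe set used here the P-SSC arrays differed by more than any gap between population means. There, Itgav passed in no comparison with all arrays. Without array 2 of both SSC populations it was higher than in CD45+ cells by 1.53 in the P-SSCs (adjusted p = 0.000224) and 1.73 in the BM-SSCs (adjusted p = 0.000132). In the same setting the difference between P-SSCs and BM-SSCs was -0.20 (adjusted p = 0.616).

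Among the partners of alphaV, Itgb5 and Itgb8 were called and Itgb3 and Itgb6 were not. Itgb5, whose chain forms a vitronectin receptor with alphaV, measured 6.71 and 6.52 in CD45+ cells, 9.65 and 9.81 in the CD51+ BMSCs, 10.46 and 8.37 in the BM-SSCs, 10.55 and 8.43 in the P-SSCs, 10.12 in Nes+ BMSCs and 10.34 and 9.74 in Osx+ cells. All other arrays lay above both CD45+ arrays. The difference from CD45+ cells was 3.42 ± 0.828 in Osx+ cells (adjusted p = 0.0421) and 2.80 to 3.12 in the other populations, which did not pass (adjusted p = 0.0686 to 0.0823), and the Osx+ call was lost with the second probe set, after centring of the arrays and with a variance trend. Itgb8, whose chain with alphaV activates latent TGF-beta, measured 2.54 and 2.11 in CD45+ cells, 5.32 and 5.30 in the CD51+ BMSCs, 5.47 and 4.01 in the BM-SSCs, 4.01 and 3.34 in the P-SSCs, 5.04 in Nes+ BMSCs and 3.54 and 3.43 in Osx+ cells. It was higher than in CD45+ cells by 2.41 ± 0.51 in the BM-SSCs (adjusted p = 0.0295) and 2.99 ± 0.51 in the CD51+ BMSCs (adjusted p = 0.0173), and both calls were lost after quantile normalization. Its CD45+ values lay below the median of every array (4.43 to 4.94), so these differences are from a dim signal, and the alternative without dim probe sets left the gene out. Without array 2 of both SSC populations Itgb8 was the only member called between P-SSCs and BM-SSCs (difference -1.46, adjusted p = 0.0338), from a lone array of each.

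Itgb3, whose chain pairs with alphaV and with the platelet chain alphaIIb, measured 7.87 and 7.67 in CD45+ cells, 7.69 on both CD51+ arrays, 5.92 and 5.26 in the BM-SSCs, 6.25 and 3.20 in the P-SSCs, 4.16 in Nes+ BMSCs and 5.42 and 5.50 in Osx+ cells. The CD45+ and CD51+ arrays lay above all others, as for Itgb2, Itgal and Itgam, but no difference passed. The nearest was -3.05 between P-SSCs and CD45+ cells (adjusted p = 0.0624). The second, dimmer Itgb3 probe set lacked this order. It read 4.35 and 4.17 in CD45+ cells, 4.30 and 4.47 in the CD51+ BMSCs and 4.55 and 5.88 in the P-SSCs. Itga2b, the alphaIIb gene of megakaryocytes and platelets, measured 8.23 and 8.09 in CD45+ cells and 6.38 to 7.82 elsewhere. By limma 0 of 8 megakaryocyte markers passed in any comparison, but single arrays stood out. Pf4 read 9.003 on P-SSC array 1, 7.512 on BM-SSC array 2 and 7.486 in Nes+ BMSCs, beside 6.239 and 6.458 in CD45+ cells. Ppbp read 6.296, 6.043 and 6.007 on these arrays, beside 3.291 and 3.169 in CD45+ cells. Itga2b read 7.82, 7.45 and 6.73 on them. The part of these markers' cells in the Itga2b values was not tested. Itga5, which forms the classical fibronectin receptor with beta1, measured 4.40 and 4.50 in CD45+ cells and 7.35 and 7.52 in the CD51+ BMSCs, a difference of 2.98 ± 0.684 (adjusted p = 0.0476). Its other values were 7.10 and 5.22 in the BM-SSCs, 6.94 and 5.40 in the P-SSCs, 6.92 in Nes+ BMSCs and 6.68 and 6.50 in Osx+ cells. The call was lost after quantile normalization, after centring and with the second probe set. Another, dimmer Itga5 probe set was higher than in CD45+ cells by 2.15 in the CD51+ BMSCs (adjusted p = 0.0148) and 1.61 in the P-SSCs (adjusted p = 0.0303). Itga8, a nephronectin receptor chain, ranged from 4.23 to 7.67 and Itgb6, an epithelial partner of alphaV, from 2.73 to 4.14, and neither passed.

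**Figure D4:**
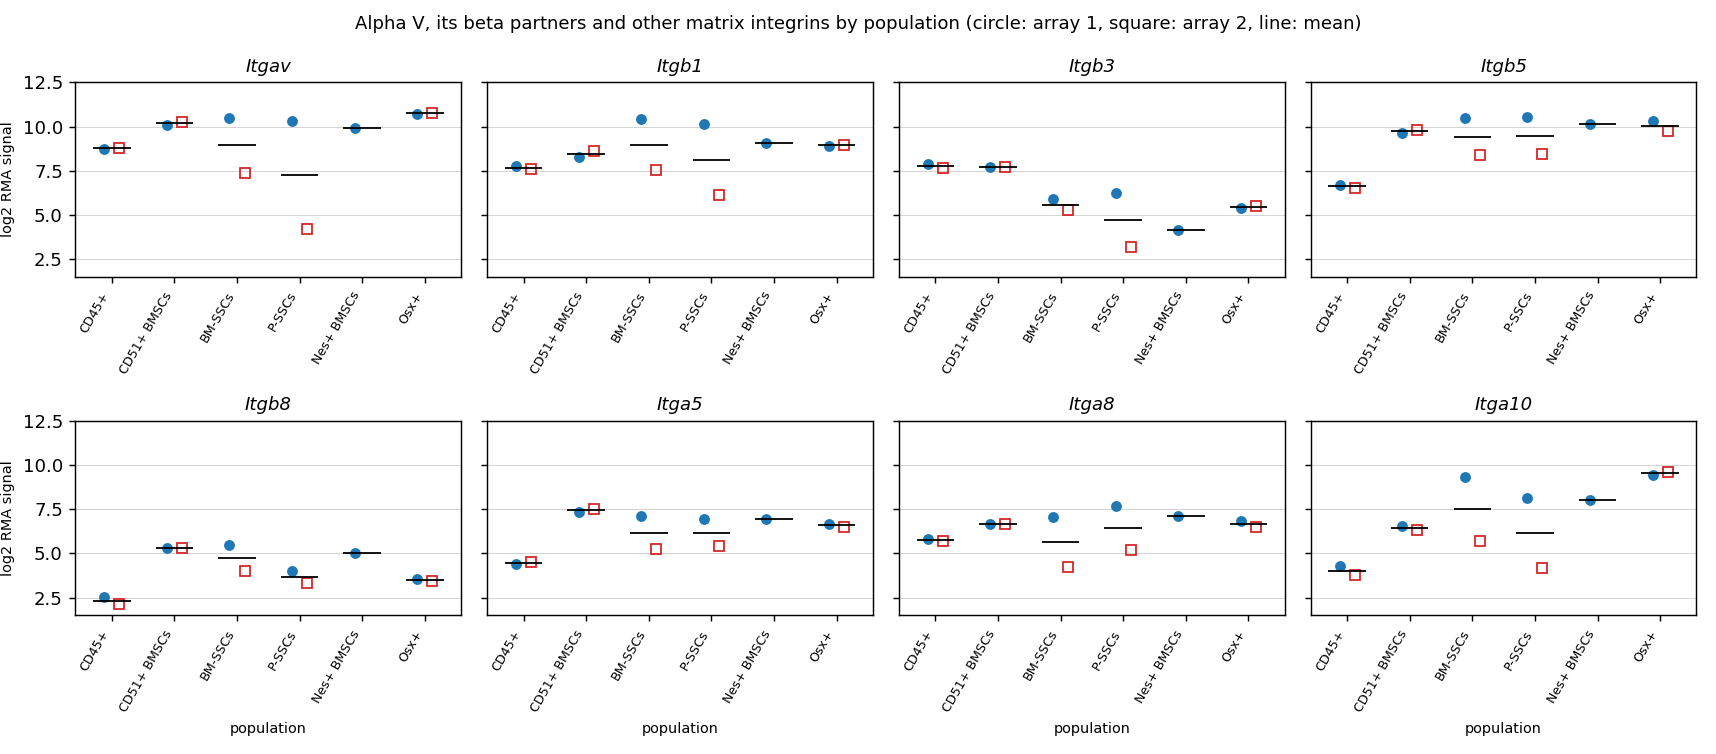
Deposited log2 values of alphaV, beta1 and partner chain genes by population (horizontal axis), with circles for array 1, squares for array 2 and a line at the mean. The arrays of the P-SSCs and of the BM-SSCs lie far apart for Itgav and Itgb1, whereas those of CD51+, Osx+ and CD45+ cells lie close together.

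The beta1 chain and its collagen- and laminin-binding partners gave a single call. Itgb1 measured 7.76 and 7.59 in CD45+ cells, 8.27 and 8.61 in the CD51+ BMSCs, 10.44 and 7.52 in the BM-SSCs, 10.17 and 6.11 in the P-SSCs, 9.07 in Nes+ BMSCs and 8.93 and 8.96 in Osx+ cells, and it passed in no comparison with all arrays. Array 1 of each SSC population held the highest values, and array 2 of each lay below all CD51+, Osx+ and CD45+ arrays. Without array 2 of both, Itgb1 was higher than in Osx+ cells by 1.22 in the P-SSCs (adjusted p = 0.00412) and 1.50 in the BM-SSCs (adjusted p = 0.00242), and higher than in the CD51+ BMSCs by 1.72 (adjusted p = 0.00144) and 2.00 (adjusted p = 0.000862).

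Itga10, a collagen receptor chain of cartilage and of skeletal progenitors, measured 9.44 and 9.59 in Osx+ cells, 9.33 and 5.71 in the BM-SSCs, 8.11 and 4.17 in the P-SSCs, 8.03 in Nes+ BMSCs, 6.51 and 6.32 in the CD51+ BMSCs and 4.27 and 3.78 in CD45+ cells. Osx+ cells were highest, and the difference from CD45+ cells of 5.49 ± 1.402 missed the threshold (adjusted p = 0.0518). The median of 10 chondrocyte markers was also highest on the Osx+ arrays, at 13.44 and 13.42, beside 3.33 to 9.86 on the others. Of these markers, 10 of 10 were higher in Osx+ than in CD45+ cells, beside 4.91% of all genes. The part of these markers' cells in the Itga10 values was not tested. Itga1 and Itga2, which encode collagen receptor chains and are neighbors on chromosome 13, ranged from 4.89 to 7.24 and from 4.14 to 5.27, and neither passed. Of the laminin-binding chains, Itga7, known from muscle, was higher in Osx+ cells (5.63 and 5.05) than in CD45+ cells (3.57 and 3.63), a difference of 1.74 ± 0.323 (adjusted p = 0.0147). Its values were 4.93 and 4.73 in the CD51+ BMSCs and 4.09 to 4.37 in the SSC and Nes+ arrays. The CD45+ values of Itga7 lay below the median of every array (4.43 to 4.94), so its difference is from a dim signal. The alternative without dim probe sets left Itga7 out, and it had 1 probe set. Itga6, a marker of many stem cells, measured 8.58 and 8.71 in Osx+ cells, 7.61 and 7.68 in CD45+ cells and 5.19 to 7.78 elsewhere, and did not pass. Itga3 and Itgb4 ranged from 5.21 to 7.76 and from 3.81 to 5.74, also without a call.

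Of the 10 laminin chains at the probe sets used, Lama2, Lama4 and Lamc1 were called higher than in CD45+ cells in at least 1 population. Lama2, the alpha2 chain of muscle and mesenchymal basement membranes, measured 4.13 and 4.11 in CD45+ cells, 10.29 and 10.51 in the CD51+ BMSCs, 8.82 and 7.01 in the BM-SSCs, 9.03 and 6.63 in the P-SSCs, 8.56 in Nes+ BMSCs and 7.73 and 7.53 in Osx+ cells. Lama4, the alpha4 chain of vessel walls, measured 3.74 and 3.73 in CD45+ cells, 9.40 and 9.73 in the CD51+ BMSCs, 7.98 and 5.63 in the BM-SSCs, 8.47 and 4.03 in the P-SSCs, 7.50 in Nes+ BMSCs and 8.43 and 8.22 in Osx+ cells. Lamc1, the gamma1 chain of most laminins, measured 4.19 and 4.10 in CD45+ cells, 8.82 and 9.01 in the CD51+ BMSCs, 7.42 and 6.73 in the BM-SSCs, 7.73 and 5.63 in the P-SSCs, 7.19 in Nes+ BMSCs and 6.39 and 6.11 in Osx+ cells. In all 3 genes the CD51+ arrays were highest and the CD45+ arrays lowest, with no overlap between CD45+ and any other array.

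Lama2 was higher than in CD45+ cells by 3.71 ± 0.823 in the P-SSCs (adjusted p = 0.0326), 3.79 in the BM-SSCs (adjusted p = 0.0325), 6.28 in the CD51+ BMSCs (adjusted p = 0.00765) and 3.51 in Osx+ cells (adjusted p = 0.0374). Lamc1 was higher by 2.53 ± 0.637 in the P-SSCs (adjusted p = 0.0478), 2.93 in the BM-SSCs (adjusted p = 0.0326) and 4.77 in the CD51+ BMSCs (adjusted p = 0.00805), and its difference in Osx+ cells was 2.11 (adjusted p = 0.093). Lama4 was higher in the CD51+ BMSCs by 5.83 ± 1.317 (adjusted p = 0.0451). The CD45+ values of all 3 genes lay below the array medians, so these differences are from a dim signal. Centring the arrays ended the calls of Lama2 in the P-SSCs, BM-SSCs and Osx+ cells, those of Lamc1 in both SSC populations and that of Lama4, and kept the direction of each. The second probe set ended the call of Lama4, with a difference of 1.86, and all 3 calls of Lamc1, with differences of 0.898 in the P-SSCs, 0.416 in the BM-SSCs and 2.79 in the CD51+ BMSCs. The Lamc1 call in the P-SSCs held in 3 of 9 alternatives. The 10 laminins had a median difference from CD45+ cells of 1.61 in the P-SSCs, 1.71 in the BM-SSCs, 2.50 in the CD51+ BMSCs and 1.57 in Osx+ cells.

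**Figure D5:**
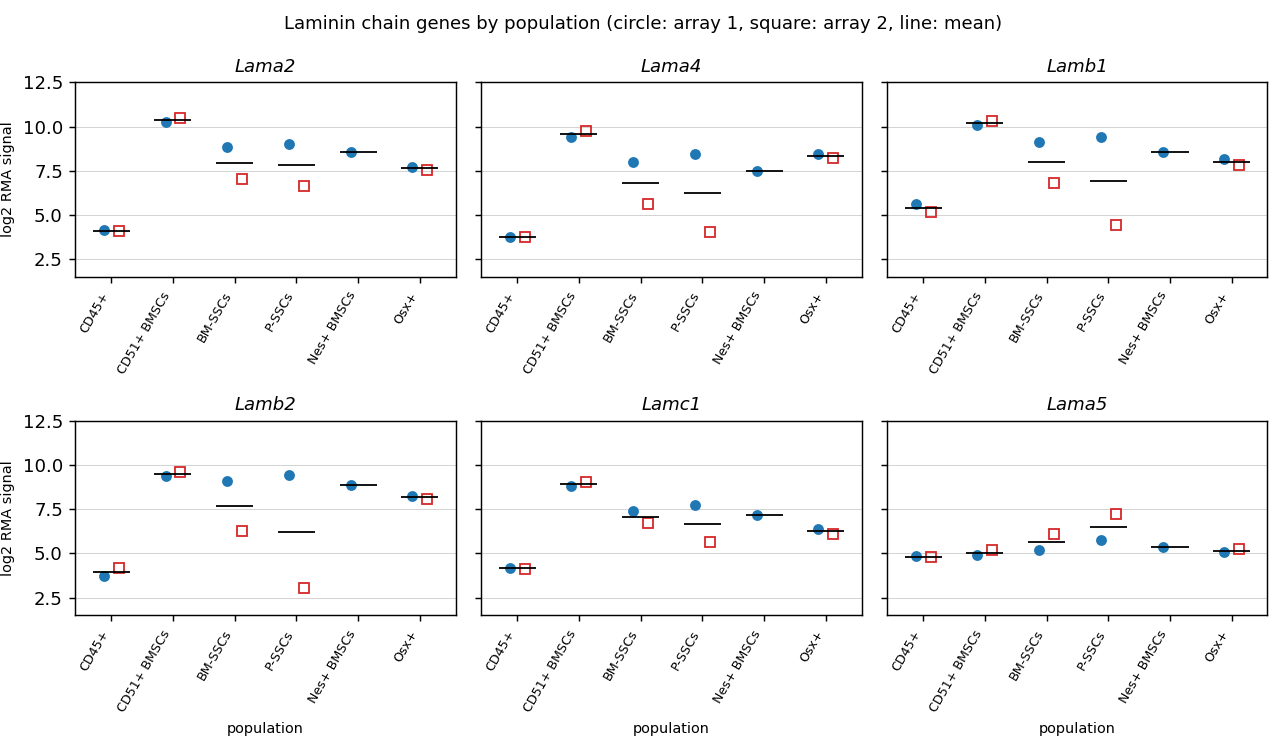
Deposited log2 values of laminin chain genes by population (horizontal axis), with circles for array 1, squares for array 2 and a line at the mean. CD45+ arrays are lowest for Lama2 and Lamc1, and the CD51+ arrays are highest.

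Lamb1 and Lamb2, whose beta chains join the alpha and gamma chains above, showed a like order with a wider spread. Lamb1 measured 5.63 and 5.15 in CD45+ cells, 10.09 and 10.34 in the CD51+ BMSCs, 9.13 and 6.82 in the BM-SSCs, 9.39 and 4.43 in the P-SSCs, 8.56 in Nes+ BMSCs and 8.19 and 7.83 in Osx+ cells. Lamb2 measured 3.74 and 4.16 in CD45+ cells, 9.34 and 9.59 in the CD51+ BMSCs, 9.06 and 6.25 in the BM-SSCs, 9.43 and 3.03 in the P-SSCs, 8.85 in Nes+ BMSCs and 8.23 and 8.09 in Osx+ cells. P-SSC array 2 lay below both CD45+ arrays in both genes, and the gap of 6.40 between the P-SSC arrays in Lamb2 was the largest of any member within a population. Their differences between CD51+ BMSCs and CD45+ cells, 4.83 and 5.52, did not pass (adjusted p = 0.112 and 0.152). Another, dimmer Lamb1 probe set did pass there, with a difference of 3.41 (adjusted p = 0.00524), and also between CD51+ BMSCs and Osx+ cells (2.47, adjusted p = 0.0224) and between P-SSCs and CD51+ BMSCs (-2.58, adjusted p = 0.0449). With array 2 of each SSC population left out, Lamb2 was higher in the P-SSCs than in CD45+ cells by 5.48 (adjusted p = 2.02e-06) and differed by -0.04 from CD51+ BMSCs (adjusted p = 0.909). In that setting Lama2 and Lamc1 were lower than in the CD51+ BMSCs, by differences of -1.37 and -1.19 in the P-SSCs (adjusted p = 0.00261 and 0.00489) and of -1.58 and -1.50 in the BM-SSCs (adjusted p = 0.00174 and 0.00263).

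The remaining laminins gave no call with all arrays at the probe sets used. Lama1 ranged from 3.20 to 4.20, Lama3 from 3.80 to 5.69, Lama5 from 4.77 to 7.23, Lamb3 from 3.29 to 4.88 and Lamc3 from 3.95 to 5.25. Another, dimmer Lama3 probe set did pass in the P-SSCs (5.08 and 5.09) against CD45+ cells (3.67 and 2.96). Its difference was 1.77 (adjusted p = 0.0239). When array 2 of each SSC population was left out, Lama5 was higher in the P-SSCs than in CD45+ cells by 0.96 (adjusted p = 0.00408) and than in Osx+ cells by 0.62 (adjusted p = 0.0448), and Lamb3 was higher in Osx+ cells than in CD45+ cells by 1.04 (adjusted p = 0.000456). Genes of skeletal muscle, a tissue with Lama2-containing basement membranes, were higher in the CD51+ BMSCs. The median of 12 muscle genes was 7.64 and 8.59 on the CD51+ arrays and 4.06 to 5.20 on the others. Of these genes, 9 of 12 were higher in the CD51+ BMSCs than in CD45+ cells, beside 4.25% of all genes. The median of 11 endothelial markers was highest on P-SSC array 1, at 6.34, beside 3.39 to 5.92 on the other arrays. The part of the muscle and endothelial genes' cells in the laminin values was not tested.

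Array choice moved the counts against CD45+ cells. The share of all genes called was not computed with single arrays left out, so these counts have none beside them. In P-SSCs the 8 calls became 3 without either CD45+ array, 5 without either CD51+ or either Osx+ array, 16 without P-SSC array 1 and 14 without P-SSC array 2. In BM-SSCs the 9 calls became 2 without either CD45+ array, 5 without either CD51+ array and 16 without either P-SSC array. In CD51+ BMSCs the 9 calls became 0 without either CD45+ or either CD51+ array and 14 without either P-SSC array. In Osx+ cells the 9 calls became 5 without either CD45+ or either Osx+ array and 17 without either P-SSC array. With only the arrays of P-SSCs and CD45+ cells in the fit, 0 members passed.

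Genes that work with integrins and laminins were read from lists of 25 adaptors, 19 basement membrane partners and 20 ligands. Adaptors were called in both directions against CD45+ cells. Lpxn, a paxillin relative of blood cells, differed from CD45+ cells by -3.93 in the P-SSCs (adjusted p = 0.00257), -4.83 in the BM-SSCs (adjusted p = 0.00141), -3.09 in the CD51+ BMSCs (adjusted p = 0.00878) and -5.50 in Osx+ cells (adjusted p = 0.000365). Tns2, which links beta chains to actin, was higher by 3.32 in the P-SSCs (adjusted p = 0.0478), 4.13 in the CD51+ BMSCs (adjusted p = 0.0305) and 5.16 in Osx+ cells (adjusted p = 0.0082). Of the 25 adaptors, 2 were higher and 4 lower in the P-SSCs than in CD45+ cells, beside 3.09% and 9.39% of all genes. The counts were 3 and 4 in the BM-SSCs (2.94% and 8.02% of all genes). They were 5 and 3 in the CD51+ BMSCs (4.25% and 3.66%) and 6 and 6 in Osx+ cells (4.91% and 7.05%).

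Basement membrane partners were called only as higher against CD45+ cells. By limma 0 of 19 were called in the P-SSCs (8 unadjusted), 1 in the BM-SSCs, 3 in the CD51+ BMSCs and 4 in Osx+ cells. The shares of all genes called higher in this order were 3.09%, 2.94%, 4.25% and 4.91%. Nid2, a nidogen that binds the laminin gamma1 chain, had means of 11.30 in Osx+ cells, 8.05 in the CD51+ BMSCs, 4.71 in the P-SSCs, 4.72 in the BM-SSCs and 3.78 in CD45+ cells. It was lower than in Osx+ cells by differences of -6.59 in the P-SSCs (adjusted p = 0.00996) and -6.58 in the BM-SSCs (adjusted p = 0.0115), and was higher than in CD45+ cells by 4.27 in the CD51+ BMSCs (adjusted p = 0.0167). Of the 10 chondrocyte markers, 6 were also lower than in Osx+ cells in each SSC population, beside 1.02% and 0.781% of all genes. The median differences of the 10 were -7.12 and -6.13, and their part in the Nid2 values was not tested. Col4a5, a basement membrane collagen chain, was higher than in CD45+ cells by 4.28 in the CD51+ BMSCs (adjusted p = 0.00976) and 5.32 in Osx+ cells (adjusted p = 0.00189).

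Of the 20 ligands, 1 was higher and 2 lower in the P-SSCs than in CD45+ cells, beside 3.09% and 9.39% of all genes. The counts were 6 and 2 in the BM-SSCs (2.94% and 8.02% of all genes). They were 3 and 2 in the CD51+ BMSCs (4.25% and 3.66%) and 7 and 2 in Osx+ cells (4.91% and 7.05%). Vtn, the gene of vitronectin and so of a ligand of the alphaV integrins, was higher in the CD51+ BMSCs than in CD45+ cells by 4.98 (adjusted p = 0.00354) and than in Osx+ cells by 4.60 (adjusted p = 0.00539), and BM-SSCs were lower than CD51+ BMSCs by a difference of -3.52 (adjusted p = 0.0362). Icam2, a ligand of LFA-1, and Cdh1, the E-cadherin bound by alphaE, were the 2 ligands lower in all 4 populations, with differences of -2.67 to -4.25 and -3.94 to -5.18. Ccn2, a matricellular ligand of alphaV integrins, was higher than in CD45+ cells by 9.91 in the BM-SSCs (adjusted p = 0.0344), 9.88 in the CD51+ BMSCs (adjusted p = 0.0424) and 10.65 in Osx+ cells (adjusted p = 0.0224). On P-SSC arrays 1 and 2 Ccn2 read 13.169 and 4.804, beside 3.067 and 2.908 in CD45+ cells. Postn (12.68 and 5.58) and Tnc (10.85 and 5.03) also differed widely between the P-SSC arrays. How far such gaps set the count of ligands called higher in the P-SSCs was not tested.

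Probe sets of a gene did not always follow each other. The members had 73 probe sets in all, with several for 20 genes and 1 for 14. The 4 Itgb5 probe sets were lowest or near lowest in CD45+ cells and above them on array 1 of every other population. The second Itgal probe set was dimmer (6.44 and 5.59 in CD45+ cells, 4.76 and 4.68 in the CD51+ BMSCs) and differed less, so that its calls between CD51+ BMSCs and each of the CD45+, Osx+, P-SSC and BM-SSC populations were lost with it. An Itgav probe set that was dim in CD45+, CD51+ and Osx+ cells (2.61 to 4.29) read 7.65 on BM-SSC array 2, 8.48 on P-SSC array 2 and 7.05 in Nes+ BMSCs, opposite to the main probe set on array 2 of both SSC populations.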

How the data were processed

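RNA of 11 samples was hybridised to Affymetrix mouse arrays. The authors normalized the scans with RMA and deposited log2 values, which were taken without further normalization. The number of arrays limits the precision. Medians of the arrays ranged from 4.43 to 4.94.

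Populations were compared in R 4.3.3 using limma 3.58.1, with a mean per population fitted over all 11 arrays (5 residual and 2.65 prior degrees of freedom). Every p-value is from limma's moderated statistics, adjusted by Benjamini-Hochberg over 45037 probe sets within a comparison, with 64 control probe sets left out, and passed under 0.05. ± values are standard errors. Genes were named from the platform annotation, and all 34 members matched RefSeq symbols. Percentages of genes called are over 1 probe set per gene (18193 genes). They were computed only with all arrays and without array 2 of both SSC populations. The members and lists were chosen with earlier results of these data known. Named were Itgav, the sorting markers, up to 6 passing members per comparison and direction with their partner chains, and up to 4 passing genes per partner list, of which the text gives some. Alternatives were quantile normalization, centring, dim probe sets left out, variance trend, array weights, second probe sets, only the groups compared, the replicate block, each array left out, and array 2 of both SSC populations left out. Groups followed the sample titles. The code was tested on simulated data.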

Additional observations from a re-analysis of the deposited data

How the results depend on the processing

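No called difference of a member changed direction under any alternative. Most counts below have no share of all genes beside them, which was computed only with all arrays and without array 2 of both SSC populations. Array weights changed the number of members called to 4 in P-SSCs, 24 in CD51+ BMSCs and 25 in Osx+ cells against CD45+ cells, 20 in CD51+ BMSCs against Osx+ cells, 0 and 1 in P-SSCs and BM-SSCs against CD51+ BMSCs, and 29 by the F test. With only the groups compared the counts in this order were 0, 23, 25, 20, 0 and 0, and 4 in BM-SSCs against CD45+ cells. CD51+ BMSCs against CD45+ cells gave 4 after quantile normalization and 4 with second probe sets, which also left 1 call in P-SSCs and 1 in BM-SSCs against CD51+ BMSCs. Without array 2 of both SSC populations the counts were 25, 24, 23 and 25 against CD45+ cells (P-SSCs, BM-SSCs, CD51+ BMSCs, Osx+), 18, 14 and 21 against Osx+ cells, 21 and 11 against CD51+ BMSCs, 1 between the SSC populations, 9 against Nes+ BMSCs and 31 by the F test. The cause was not tested.

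Leaving out each array gave 3 to 16, 2 to 16, 0 to 14 and 5 to 17 calls against CD45+ cells in the same order, 0 to 14 in P-SSCs and 0 to 6 in CD51+ BMSCs against Osx+ cells, 0 to 18 and 0 to 6 against CD51+ BMSCs, 0 to 6 between the SSC populations and 2 to 24 by the F test. BM-SSCs gave 0 calls against Osx+ cells and Nes+ BMSCs throughout.

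Centring shifted differences from CD45+ cells by -0.34 in P-SSCs and -0.25 in BM-SSCs (log2) and changed the split of higher and lower members from 3 and 5 to 1 and 6 in P-SSCs, from 4 and 5 to 1 and 6 in BM-SSCs, from 6 and 3 to 4 and 4 in CD51+ BMSCs and from 3 and 6 to 1 and 6 in Osx+ cells. With the array number as a replicate block the counts against CD45+ cells were 9, 10, 10 and 9, the F test gave 8, and the counts of the 6 comparisons among P-SSCs, BM-SSCs, CD51+ BMSCs and Osx+ cells were as before. The split in Osx+ cells became 4 higher and 5 lower, with the call of Itgax lost. BM-SSCs against Nes+ BMSCs was not run with the block. Deviations of same-numbered arrays correlated at 0.78 between P-SSCs and BM-SSCs and at -0.27 to 0.01 between all other pairs of populations. Across the populations the numbers were therefore not taken to pair the samples. The block was common to the populations, so it could not take up a deviation shared only by P-SSCs and BM-SSCs. How that shared deviation bears on the comparison of P-SSCs with BM-SSCs was not tested.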
